A study of Mus musculus with 6 samples.

Results

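Bone hardens when phosphate and calcium crystallise in the collagen matrix that osteoblasts lay down, and 10 genes that set the local and systemic supply of phosphate are described here in the skull roof of young mice. Each gene was taken through all probe sets that the array's annotation gives to that gene alone, and 8 of the 10 had at least 1 such probe set, 14 of 45101 probe sets on the array. Ankh is annotated under its other symbol, Ank, and was matched through the synonym in the reference gene table. Phospho1 was annotated only on a probe set that carries a second symbol and no probe set of 1 symbol was named for Enpp1 here, so neither is given a value. The low-signal filter, a mean log2(signal + 16) of 6.28 or more over the distinct arrays (a signal of 61.9), kept 12 of the 14 probe sets and 7 of the 8 genes. Fgf23 and 1 of 3 Slc20a1 probe sets lay under it.

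The tissue was parietal bone of the calvaria at postnatal day 10. The transgenic animals were 13del-tg mice, which express a Col10a1-13del transgene, known from other work to make a collagen X chain that misfolds, and are labelled as having bone overgrowth. The controls were their wild-type littermates. The labels do not give a promoter, a strain or a sex, and list 3 biological replicates of each genotype on 1 array each. The columns of 13del-tg 1 and control 1 held the same value for 45101 of 45101 probe sets, so that array, called the shared array, was left out of the test and is shown apart, and 13del-tg 2 and 3 were set against control 2 and 3.

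Tissue-nonspecific alkaline phosphatase, encoded by Alpl, removes inorganic pyrophosphate, the main small-molecule inhibitor of crystal growth, and releases phosphate in doing so. ANK, the product of Ankh, moves the precursors of pyrophosphate out of the cell, and ENPP1 makes pyrophosphate there. The sphingomyelinase encoded by Smpd3 releases phosphocholine from membrane lipid, and PHOSPHO1 frees phosphate from it inside matrix vesicles, the small membrane sacs in which mineral first forms. Slc20a1 and Slc20a2 encode the sodium-phosphate cotransporters PiT-1 and PiT-2, PHEX and FGF23 form the osteocyte's arm of whole-body phosphate control, and matrix Gla protein, from Mgp, keeps soft tissue and cartilage from calcifying.

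Across the table, Col10a1 identified the genotype of the 4 compared arrays, with signals of 15689 and 11584 on the 13del-tg arrays against 149.8 and 158.2 on the controls and 152.2 on the shared array, a log2 difference of 6.31 (SE 0.23, limma adjusted p = 9.45e-05). Whether this probe set detects transgene or native transcripts is not given in the sources used here. All arrays had been scaled to a trimmed mean of 500.003. The 13del-tg 3 array alone carried a high Xist signal, 15206, against 29.9 to 84.5 on the others, and a low signal of the Y-linked Eif2s3y, 11.1, so the sexes were not balanced between the genotypes. Of the marker lists of other tissues, 8 of 8 kept pineal and photoreceptor genes had negative differences (median -4.24), of which 4 passed the test. Their summed signals were 438 and 471 on the 13del-tg arrays, 4929 and 10327 on the controls and 661 on the shared array. That array thus joined a low pineal signal to a Col10a1 signal like that of the controls. The 5 of 5 kept erythroid genes had negative differences (median -2.32), of which 0 passed. Skeletal muscle genes had 7 positive differences of 8 (median 1.61), of which 0 passed, and control 3 stood apart, with summed signals of 176594 and 137275 on the 13del-tg arrays, against 133558 on control 2 and 24928 on control 3. Without control 3, a setting chosen after the data were seen, the muscle median was 0.23, and without control 2 it was 2.9, with 7 of 8 past the test. All 9 osteoclast markers had negative differences (median -0.38), of which 0 passed. In such bulk samples fewer cells of a type and less RNA per cell cannot be told apart.

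None of the 12 kept probe sets of the mineralisation genes passed the test, where 0.037% of all 27022 kept probe sets did so at a limma adjusted p under 0.05. At an unadjusted p under 0.05 the count was 0 of 12 as well, beside 5.14% of all kept probe sets (1.42% higher and 3.72% lower). That count was 1 in 3 of the 18 alternative settings, each time with another gene: the brightest Smpd3 probe set without 13del-tg 3 (0.62), a Slc20a2 probe set without control 2 (-0.79) and the bright Slc20a1 probe set with the shared array as 13del-tg (-0.50). Their log2 differences, 13del-tg minus control, ran from -0.45 to 0.30, with 4 positive and 8 negative and a median of -0.056, beside a median of -0.075 over all kept probe sets. The 13del-tg and control arrays did not overlap for 2 of the 12, Mgp upward and Slc20a1 downward, which is 16.7% beside 35.6% of all kept probe sets. For 10 of the 12, the larger gap between arrays of the same genotype exceeded the difference between the genotype means. Single arrays vary more than means do. The share over all kept probe sets was not computed, so this count is not read as a trait of these genes. With 2 arrays a side an exact two-sided permutation test cannot go below p = 0.333, so each call rests on limma's pooled spread and each interval below is limma's at 95%.

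**Figure D1:**
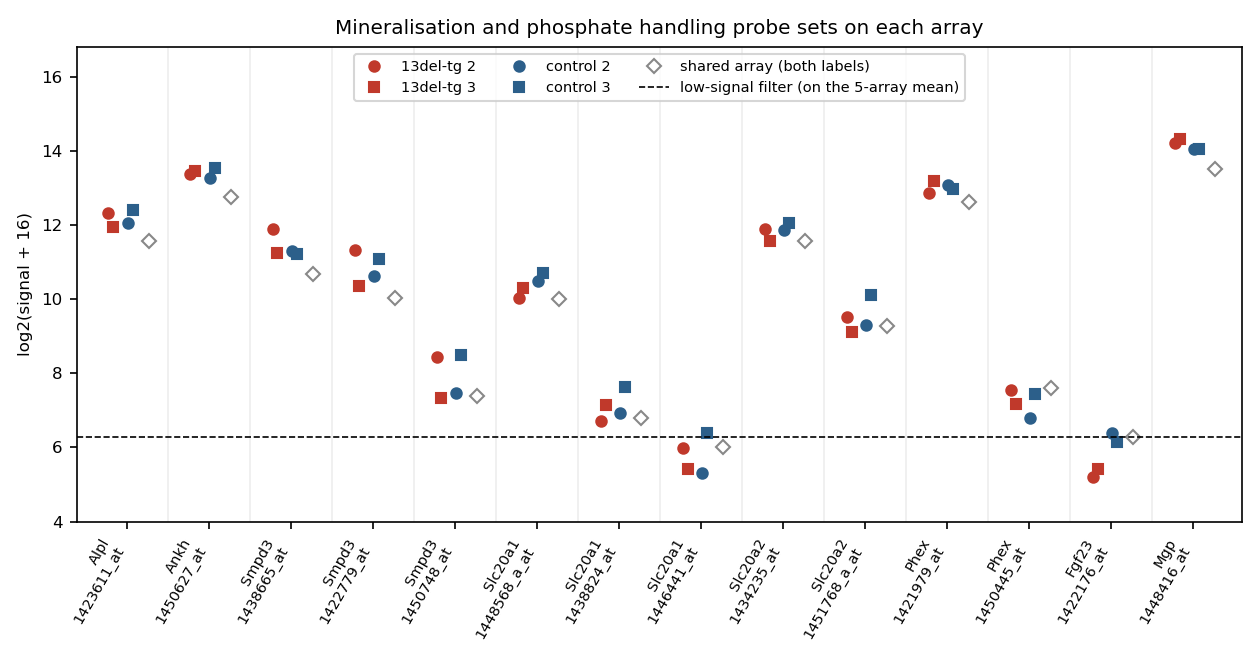
The vertical axis is log2(signal + 16) and each column is 1 probe set, with the 13del-tg arrays in red, the controls in blue and the shared array as open diamonds; the dashed line marks the low-signal filter of 6.28. Red and blue symbols overlap in most columns, and the shared array lies lowest for Alpl, Ankh and Mgp.

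Alpl had signals of 5096 and 3905 on the 13del-tg arrays, against 4245 and 5356 on the controls, and 3035 on the shared array. The highest and the lowest of the 4 compared values belong to control 3 and 13del-tg 3, with the other pair between them, so the groups overlapped. The log2 difference was -0.096 (SE 0.22, interval -0.60 to 0.41, limma adjusted p = 0.962). On the fold scale the interval runs from 0.658 to 1.33. Leaving out control 3 turned the difference to 0.071 and leaving out 13del-tg 3 turned it to 0.095.

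The deposited value of Alpl comes from 1 probe set, whereas RefSeq lists a pair of starts 29909 bases apart for the gene, which is known to use alternative first exons in different tissues. The array value does not separate them. The 150 bases before each start are shown for this reason, 5′ to 3′ on the gene's strand (GRCm38.p6, minus strand), at chr4:137796385-137796534 for the upstream start and chr4:137766476-137766625 for the downstream start. Capitals would mark the RUNX core TGTGGT or the TATA box TATAAA on either strand, and neither occurs in these letters.
Alpl upstream start: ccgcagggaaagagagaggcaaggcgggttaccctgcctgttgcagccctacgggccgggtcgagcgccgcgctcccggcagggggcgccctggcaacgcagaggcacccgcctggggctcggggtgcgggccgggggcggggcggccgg
Alpl downstream start: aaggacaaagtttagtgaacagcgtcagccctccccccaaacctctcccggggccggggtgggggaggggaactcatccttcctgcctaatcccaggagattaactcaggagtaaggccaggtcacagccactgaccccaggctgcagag
The downstream start holds TATAAA or its complement TTTATA 192 bases before it, outside the stretch shown.

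Ankh, which acts against Alpl by raising pyrophosphate outside the cell, had 10551 and 11187 on the 13del-tg arrays, against 9961 and 11898 on the controls, and 6905 on the shared array. Both 13del-tg values lay between the controls. The log2 difference was -0.003 (SE 0.19, interval -0.43 to 0.42, adjusted p = 1.0 by limma), the smallest of the 12.

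Smpd3, the neutral sphingomyelinase whose loss in the fro/fro mouse leaves bone poorly mineralised, had 3 probe sets, all kept. On the brightest, 1438665_at, the signals were 3761 and 2396 on the 13del-tg arrays, against 2502 and 2373 on the controls, and 1642 on the shared array. Only 13del-tg 2 stood clear, since 13del-tg 3 lay between the controls. The log2 difference was 0.30 (SE 0.25, interval -0.28 to 0.87, limma adjusted p = 0.888), and without 13del-tg 2 it was -0.024. The other 2 probe sets had differences of -0.015 (1422779_at, interval -0.78 to 0.75) and -0.096 (1450748_at, interval -1.21 to 1.02). All 3 read higher on 13del-tg 2 than on 13del-tg 3: on 1422779_at these arrays had 2533 and 1298, where the controls had 1568 and 2143, and on 1450748_at they had 328.1 and 143.9, where the controls had 160.4 and 340.4. The gap between those 13del-tg arrays, 0.65 to 1.11 on the log2 scale, was thus larger than any of the 3 differences between genotypes.

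The markers of the cells that make bone mineral are given beside these values. All 8 measured osteoblast markers, among them Col1a1 and Sp7, were above the filter signal on every array, so the labelled tissue carried its defining genes. Their summed signals were 191951 and 208679 on the 13del-tg arrays, against 169347 and 193923 on the controls. Of the 8, 5 had positive and 3 negative differences with a median of 0.10, and 0 passed the test, with 1 at an unadjusted limma p under 0.05, Ifitm5, a membrane protein of mineralising osteoblasts (0.52).

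Slc20a1, the PiT-1 transporter that carries phosphate into osteoblasts and chondrocytes, had 1019 and 1249 on the 13del-tg arrays, against 1435 and 1664 on the controls, and 1011 on the shared array (probe set 1448568_a_at). The 2 genotypes did not overlap, with 13del-tg lower, and the shared array lay just below the lower 13del-tg value. The log2 difference was -0.45 (SE 0.23, interval -0.97 to 0.072), a fold of 0.733, and it did not pass (limma adjusted p = 0.880). Downward separation of this kind was found for 23.0% of all kept probe sets. The difference was -0.30 without 13del-tg 2 and -0.25 with the shared array added to the controls.

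A second Slc20a1 probe set, 1438824_at, was dim, with 88.4 and 126.0 on the 13del-tg arrays against 105.0 and 182.5 on the controls, which overlap. Its difference was -0.35 (interval -1.30 to 0.61) and it turned to 0.009 without control 3. The third, 1446441_at, had 47.4 and 26.8 against 23.7 and 67.8, also overlapping, and was under the filter and not tested.

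Because Slc20a1 was the 1 kept member with both 13del-tg arrays low, the 150 bases before its first RefSeq start are shown, 5′ to 3′ (GRCm38.p6, plus strand, chr2:129198623-129198772). The capitals mark the RUNX core TGTGGT, the motif of the osteoblast factor RUNX2 and its relatives, which begins 77 bases before the start.
Slc20a1: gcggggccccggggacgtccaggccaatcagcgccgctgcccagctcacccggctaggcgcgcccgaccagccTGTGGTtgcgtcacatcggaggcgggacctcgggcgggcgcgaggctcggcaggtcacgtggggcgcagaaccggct
The letters TGTGGT or their complement ACCACA occur within 250 bases before 14.0% of 32851 RefSeq starts, and TATAAA or TTTATA before 12.4%. Among the 9 starts listed for 7 of the 10 genes, 2 held the RUNX core, this one and that of Enpp1. The letters TATAAA or TTTATA were held by 1, the downstream start of Alpl. These matches are descriptions of the letters only.

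Slc20a2, the PiT-2 transporter, overlapped between genotypes on both probe sets. On 1434235_at the signals were 3788 and 3044 on the 13del-tg arrays, against 3724 and 4220 on the controls, and 3027 on the shared array. The log2 difference was -0.22 (SE 0.21, interval -0.69 to 0.25, limma adjusted p = 0.895). On 1451768_a_at the signals were 721.5 and 535.5 against 615.5 and 1085, in which control 3 stood apart from the other arrays. Its difference of -0.39 (interval -1.13 to 0.36) became 0.014 without control 3.

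**Figure D2:**
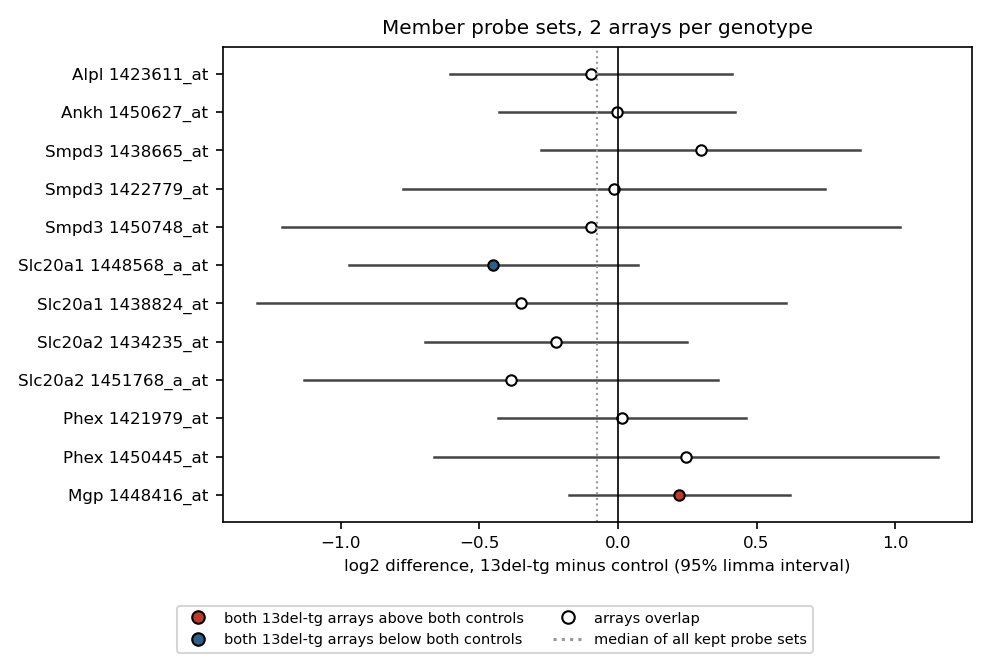
The horizontal axis is the log2 difference, 13del-tg minus control, of each kept probe set, and the bars are limma's 95% intervals over 2 arrays per genotype. Every bar crosses 0; red marks Mgp at 0.22 and blue marks Slc20a1 at -0.45, the 2 probe sets whose arrays did not overlap, and the dotted line is the median of all kept probe sets, -0.075.

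Phex, an X-linked endopeptidase-like protein of osteoblasts and osteocytes whose loss raises FGF23, had 7481 and 9335 on the 13del-tg arrays, against 8624 and 7942 on the controls, and 6337 on the shared array (1421979_at). The 13del-tg arrays lay on either side of both controls. The log2 difference was 0.014 (SE 0.19, interval -0.43 to 0.46, limma adjusted p = 0.997). The high value came from 13del-tg 3, the array with high Xist, and without it the difference was -0.14. A link to sex was not tested. A second, dim probe set, 1450445_at, had 169.8 and 128.1 on the 13del-tg arrays, against 94.2 and 157.0 on the controls, overlapping, with a difference of 0.25 (interval -0.66 to 1.15). On this probe set 13del-tg 3 was the lower of the 13del-tg arrays.

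Fgf23, the hormone by which bone makes the kidney excrete phosphate, was dim on every array, with signals of 20.6 and 27.1 on the 13del-tg arrays, against 67.2 and 55.0 on the controls, and 61.5 on the shared array. The 13del-tg values were the lower pair with no overlap, as for 22.9% of all 45037 probe sets without the array's control features. The mean signals were 23.8 ± 4.6 and 61.1 ± 8.6 (SD, n = 2 each), all near or under the filter signal of 61.9, where MAS5 values are noisy. The log2 difference of -0.95 was therefore not tested with the kept probe sets; fitted without the filter it had an interval of -2.05 to 0.15 (limma adjusted p = 0.907).

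The osteocyte markers that share the source cell of Phex and Fgf23 were mixed. Of 8 markers, both of these included, 7 were kept, 3 with positive and 4 with negative differences (median -0.068), and 0 passed. Both with an unadjusted limma p under 0.05 were inhibitors of Wnt signalling, Sost (-1.65, adjusted p = 0.140) and Dkk1 (-1.49, adjusted p = 0.135), and the arrays of each did not overlap; they are named after their values were seen, as is Ifitm5 above. The list's summed signal was 39842 and 53544 on the 13del-tg arrays, against 45965 and 52876 on the controls, and its part in the Fgf23 values was not tested.

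Mgp had the smallest standard error of the 12 kept probe sets, with 18866 and 20498 on the 13del-tg arrays, against 16874 and 16855 on the controls, and 11651 on the shared array. Both 13del-tg arrays lay above both controls, which 12.6% of all kept probe sets did. The mean signals were 19682 ± 1154 and 16864 ± 12.9 (SD, n = 2 each). The log2 difference of 0.22 (SE 0.17, interval -0.18 to 0.62) is a fold of 1.17 and did not pass (limma adjusted p = 0.885). It was 0.029 after quantile normalization and 0.339 with the arrays centred on the median. With the shared array counted as 13del-tg it was -0.03, and with that array counted as control it was 0.399.

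Mgp is made by chondrocytes, smooth muscle and fibroblasts as well as by bone cells, and the markers of these cells differed in direction. Of 14 chondrocyte markers 13 had negative differences (median -0.99), with summed signals of 34303 and 23669 on the 13del-tg arrays, against 49307 and 23926 on the controls. These sums are weighted by the brightest marker, Col11a1, the 1 with a positive difference, at 22802 and 19719 against 18276 and 15085. The sums therefore do not show the direction of the other 13. On 13del-tg 3, 5 of the 14 were under the filter signal, and 1 was on control 3. All 5 vascular smooth muscle markers had positive differences (median 0.36), with sums of 22251 and 16522 against 16414 and 12046. Myh11 (0.051) and Cnn1 (0.066) were near 0. The largest difference was that of Des (1.43), which was low on control 3, 308.5 against 2371 on control 2, as the skeletal muscle list was. The 7 fibroblast and suture mesenchyme markers had 4 positive and 3 negative (median 0.05), with sums of 103009 and 111218 against 94131 and 97616. None of the 3 lists had a member past the test, with 3, 1 and 0 members at an unadjusted limma p under 0.05, and their part in the Mgp values was not tested.

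The shared array read low for these genes. Of the 12 kept probe sets it lay below all 4 compared arrays for 8, or 66.7%, within their range for 3 and above them for 1, the dim Phex probe set. The brightest probe set of each of the 7 kept genes was among the 8, with log2 differences of -0.86 to -0.16 from the 13del-tg mean (median -0.55) and of -0.66 to -0.38 from the control mean (median -0.57). Over all kept probe sets it lay below all 4 for 20.9%, and for 30.9% of those whose mean log2 value reached that of a signal of 500. The brightest probe sets of these genes lie above that signal, so neither share is matched to them for brightness. The median of the 8 osteoblast markers was -0.58 there and that of the 7 kept osteocyte markers -0.56, against the control mean. Other lists also read low there: osteoclast -0.59, erythroid -0.67, neuron -0.57, and fibroblast and suture mesenchyme -0.43. Chondrocyte markers were at -0.02, and vascular smooth muscle (0.63) and skeletal muscle (1.97) markers read high. The low reading is thus not particular to these genes. The same values carry both labels, so the labels do not settle the genotype of that array. Its Col10a1 signal, 152.2, lay between those of the controls (149.8 and 158.2) and far below those of the 13del-tg arrays (15689 and 11584). Its summed pineal and photoreceptor signal, 661, was instead near those of the 13del-tg arrays (438 and 471) and far below the controls (4929 and 10327).

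**Figure D3:**
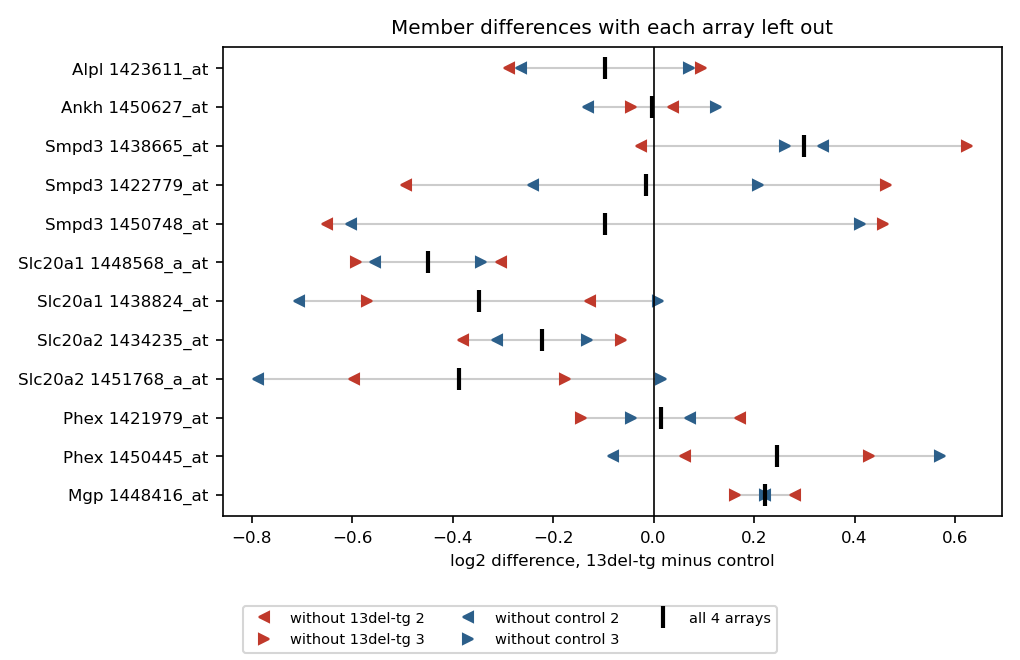
Each row is 1 kept probe set and the horizontal axis is its log2 difference, 13del-tg minus control, with all 4 arrays (black bar) and with each array left out (red triangles for 13del-tg arrays, blue for controls). The sign holds in all 4 for Mgp (0.16 to 0.28), the bright Slc20a1 probe set (-0.59 to -0.30) and the bright Slc20a2 probe set (-0.38 to -0.06), whereas the other rows cross 0.

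The wider pathway was read from 44 further genes of mineral formation and phosphate control, of which 41 had a named probe set and 29 passed the filter, each by its brightest kept probe set. None of the 29 passed over all probe sets, and 4, or 13.8%, had an unadjusted limma p under 0.05, where 5.14% of all kept probe sets did. That count varied with the setting. It was 1 with the shared array under both labels (Car12), 2 without the trend and with the shared array as control, and 5 with the brightest probe set per gene. In that last setting 191 of all 12859 genes met the same limma threshold upward and 683 downward. It was also lower in some fits with 1 array left out, whose standard errors are larger. In those fits the differences kept their sign, at 0.86 to 1.69 for Car12, 0.46 to 0.84 for Ppa1, -0.66 to -0.57 for Fam20a and -0.69 to -0.36 for Slc37a2. The 4 were 2 with a positive and 2 with a negative difference, and over the list 14 were positive and 15 negative with a median of -0.021. The arrays did not overlap for 14 of the 29, 9 upward and 5 downward, or 48.3% beside 35.6% of all kept probe sets. All kept probe sets include the dimmer ones of each gene, so neither 35.6% nor 5.14% is matched to the list for brightness.

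Car12, a membrane carbonic anhydrase, had 269.0 and 216.2 on the 13del-tg arrays, against 126.2 and 63.6 on the controls (log2 difference 1.27, SE 0.41, adjusted p = 0.880 by limma). Ppa1, the cytosolic pyrophosphatase that splits pyrophosphate into phosphate inside the cell, had 2298 and 2992 against 1832 and 1516 (0.65, SE 0.23). Fam20a, the pseudokinase partner of the FAM20C kinase, had 510.5 and 542.3 against 830.5 and 799.9 (-0.62, SE 0.24). Slc37a2, a sugar-phosphate transporter, had 1732 and 2025 against 2416 and 3030 (-0.53, SE 0.22). In each of the 4 the genotypes did not overlap and the shared array, at 167.1, 1836, 640.5 and 1756, lay within the range of the compared arrays, and all 4 shared the adjusted p of 0.880.

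Galnt3, whose glycosylation protects FGF23 from cleavage, had 572.7 and 717.7 on the 13del-tg arrays, against 473.9 and 366.3 on the controls (0.60, SE 0.28), with no overlap, and a second kept probe set had 0.48. Fam20c, the kinase that phosphorylates FGF23 and bone matrix proteins, had 1291 and 1797 against 1510 and 2685 (-0.40, SE 0.31). Dmp1, the osteocyte phosphoprotein whose loss raises FGF23, had 18313 and 27802 against 17898 and 22992 (0.15, SE 0.24), and Mepe, another osteocyte phosphoprotein, had 3928 and 7131 against 5724 and 6989 (-0.26, SE 0.29). In both, 13del-tg 2 lay well below 13del-tg 3. Ibsp, the bone sialoprotein gene, had a difference of 0.34 (SE 0.18), with no overlap between genotypes.

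On the transport and receptor side, Xpr1, the phosphate exporter, had 2605 and 3013 on the 13del-tg arrays, against 3366 and 3627 on the controls, with no overlap. Its difference was -0.32 (SE 0.20, limma adjusted p = 0.880), and its 6 kept probe sets had differences of -0.71 to -0.03. Fgfr1, a receptor for FGF23, had 3074 and 2418 against 3264 and 2775 (-0.14, SE 0.22), with another of its 3 kept probe sets of opposite sign. Its coreceptor gene Kl, a kidney gene, lay under the filter, with 89.2 and 2.6 against 56.6 and 27.8.

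**Figure D4:**
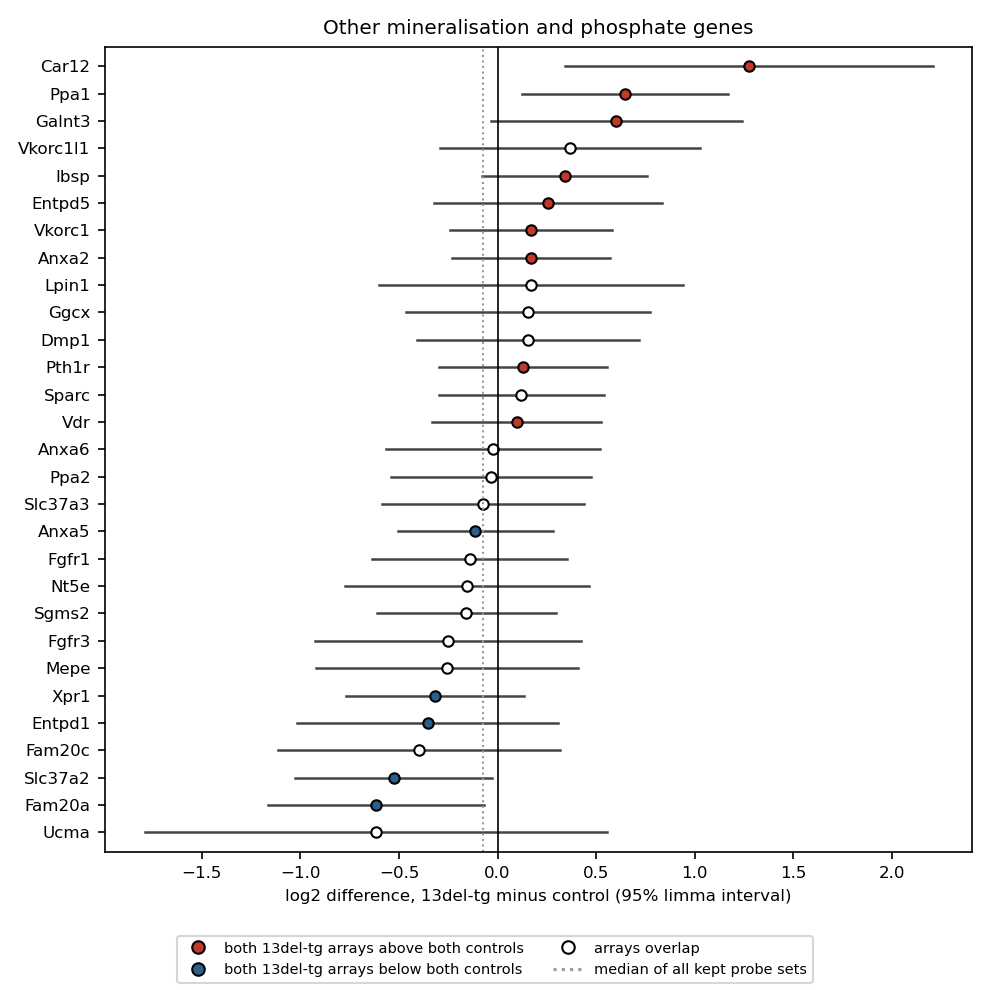
Each row is 1 of the 29 kept genes of the wider list, with its log2 difference, 13del-tg minus control, on the horizontal axis and limma's 95% interval as a bar; red and blue mark genes whose 13del-tg arrays both lay above or below the controls. The bars of Car12, Ppa1, Fam20a and Slc37a2 lie to 1 side of 0 before adjustment for the number of probe sets, and the other bars cross it.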

How the data were processed

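RNA came from cryosections of embedded parietal bone (TRIZOL) and was copied into biotinylated antisense RNA for hybridization, per the labels. The authors deposited 1 linear intensity for each probe set and array, and the submitters' processing notes name MAS5 without a version. Detection calls and scan dates were not used here, and the number of arrays limits the precision.

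From the deposited intensities log2(signal + 16) was computed, 64 control probe sets were left out and probe sets at or above the 40th percentile of the mean over the 5 distinct arrays were kept (27022). The test was that of limma 3.58.1 (R 4.3.3; linear model with trended empirical Bayes, two-sided). P-values were adjusted by Benjamini and Hochberg's method across all kept probe sets, with a threshold of 0.05, and residual degrees of freedom were 2. Nothing in the labels ties same-numbered animals, and replicates are biological per the labels. The code was tested on simulated data with known changes.

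Names came from the platform annotation, updated through the gene number in the reference gene table (34754 of 34945 probe sets of 1 symbol matched). Promoter sequences are from RefSeq, build GRCm38.p6. The members and gene lists were chosen with earlier results of these data known. All members are named. Of the wider list, the 6 genes with the smallest unadjusted p are named. So are 7 chosen by name (Dmp1, Mepe, Fam20c, Galnt3, Fgfr1, Kl and Xpr1), of which Galnt3 is also among the 6. Alternatives were pseudocounts, filters, scaling, gene summaries, eBayes forms, single arrays left out, a replicate block and the shared array under each label.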

Additional observations from a re-analysis of the deposited data

Results flagged for a closer look

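On the shared array, which enters no comparison, the dim Phex probe set 1450445_at had a signal of 177.4, above both 13del-tg arrays (169.8 and 128.1) and above both controls (94.2 and 157.0). Of all kept probe sets, 36.0% were above both controls on that array, and the brighter Phex probe set was below both.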

How the results depend on the processing

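In each of the 18 alternatives 0 mineralisation probe sets and 0 of the wider list passed the threshold, and 180 of 206 recomputed differences of single probe sets kept their sign. The filters, the brightest probe set, the eBayes forms and the replicate block leave a difference as it was. The shared array under both labels only shrinks it. A sign could not turn in those settings, so the count of kept signs does not measure robustness. Over all kept probe sets, 8 were lower and 2 higher, while an unadjusted p under 0.05 was met by 384 upward and 1006 downward. Higher and lower counts were 1 and 1 with a pseudocount of 1, with a filter at the 60th percentile and with quantile normalization, 1 and 0 without a filter, without the trend and with the shared array as control, 2 and 5 with a pseudocount of 64, 2 and 18 with robust eBayes, 0 and 8 with that array as 13del-tg, and 0 and 0 with it under both labels (31 and 263 at an unadjusted p under 0.05). With 1 array left out they ran from 1 to 199 higher and from 5 to 43 lower, each such fit assuming that the lone array varies like the other group. The replicate block gave 330 and 338, on 1 residual degree of freedom, with 0 mineralisation probe sets past the threshold (the bright Slc20a1 probe set had an adjusted p of 0.551); the deviations of same-numbered arrays correlated at r = 0.216, but with 2 pairs and no label tying the numbers these are not taken as pairs. Centring the arrays moved the median of all kept probe sets from -0.075 to 0.043, and the split at an unadjusted p under 0.05 to 695 higher and 636 lower. Centring also turned the sign of Alpl (0.022), Ankh (0.115) and Smpd3 1422779_at (0.102) and 1450748_at (0.021, and 0.024 after quantile normalization). Quantile normalization turned Phex 1421979_at (-0.129) and Dmp1 (-0.04). With the shared array as control, Alpl was 0.121, Ankh 0.216, Smpd3 1422779_at 0.261, Smpd3 1450748_at 0.101 and Mepe 0.058; with it as 13del-tg, Phex 1421979_at was -0.119, Mgp -0.03 and Dmp1 -0.077. With single arrays left out, differences ran from -0.29 to 0.10 for Alpl, -0.13 to 0.12 for Ankh, -0.024 to 0.62, -0.49 to 0.46 and -0.65 to 0.46 for the 3 Smpd3 probe sets, -0.70 to 0.009 for Slc20a1 1438824_at, -0.79 to 0.014 for Slc20a2 1451768_a_at, -0.14 to 0.17 for Phex 1421979_at, -0.08 to 0.57 for Phex 1450445_at, -0.15 to 0.45 for Dmp1, -0.68 to 0.17 for Mepe, -0.81 to 0.013 for Fam20c and -0.31 to 0.03 for Fgfr1. The cause of these turns was not tested. Of 20 genes of the wider list with several kept probe sets, 9 had probe sets of opposite sign.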
